A study of Mus musculus with 12 samples.

Results

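Transcript levels of 9 genes of mitochondrial fusion, fission and mitophagy were followed in primary adult mouse cardiomyocytes after stimulation with LIF and OSM proteins. The genes were the fusion genes Mfn1, Mfn2 and Opa1, the fission genes Dnm1l, Fis1 and Mff, and the mitophagy genes Pink1, Bnip3 and Bnip3l. They were taken by gene symbol from a table of 22915 genes, and all 9 were among the 13184 genes that were tested. Cardiomyocytes came from male C57/Bl6 mice aged 12 weeks and were kept under normoxia. Cells received murine LIF (mLIF), which signals via the LIFR, murine OSM (mOSM), which signals via the OSMR, or hlOSM, a mouse OSM carrying the human AB loop that signals via both receptors. The labels give 25 ng/mL of protein for 24 h, and PBS, the solvent, served as the control. The concentration in the study's methods differs from that in the labels. Each of the 4 conditions had 3 sequencing libraries. No label says whether the 3 libraries of a condition came from separate mice or cultures, so p-values measure the spread between these libraries, which may be technical.

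Mitochondria constantly fuse and divide. Mitofusins join the outer membranes of neighbouring mitochondria, OPA1 joins the inner membranes and shapes the cristae, and the dynamin-related GTPase DRP1 cuts mitochondria after adaptors have brought it to the outer membrane. Damaged mitochondria are removed by mitophagy, either after the kinase PINK1 has marked them or through receptors of the outer membrane that bind the autophagosome, and the densely packed mitochondria of adult cardiomyocytes depend on this balance.

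Values below are counts normalized by the authors and rounded to whole numbers, and a log2 fold change is the difference of mean log2(value + 1). The totals of the 12 libraries lay between 2745748 and 2911891. Genes were called changed at an adjusted p under 0.05 (limma, Benjamini-Hochberg over 13184 genes, two-sided). Summed values of 9 cardiomyocyte markers ran from 16897 to 18768 in the PBS libraries, from 14478 to 16147 after mLIF, from 13228 to 15565 after mOSM and from 13771 to 14258 after hlOSM, and none of the markers was at 0 in a condition. Markers of other cells were present in all conditions. Endothelial markers summed to 1167 to 1232 with PBS, 1160 to 1219 with mLIF, 1421 to 1635 with mOSM and 1425 to 1543 with hlOSM. Smooth muscle and pericyte markers summed to 956 to 1201, 891 to 947, 677 to 729 and 617 to 637 in the same order. Macrophage markers summed to between 345 and 438 over all 12 libraries. Fibroblast markers summed to 2296 to 2526 with PBS, 2110 to 2251 with mLIF, 2459 to 2885 with mOSM and 2307 to 2540 with hlOSM. Single ones moved both ways, with 3 of 8 raised and 5 lowered by hlOSM and 2 raised and 3 lowered by mOSM. Of all tested genes, 37.9% were called with hlOSM and 31.2% with mOSM.

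All 3 fusion genes were lower with both OSM proteins than with PBS, no fission gene was called changed with any of the cytokines, and the 3 mitophagy genes were called lower with hlOSM, of which Bnip3 alone was also called when the replicate number entered the fit as a block. For the fission genes a lack of calls does not mean a lack of change. With hlOSM, Fis1 differed from PBS by -0.13 on the log2 scale (SE 0.09), near the called Opa1 at -0.15 (SE 0.05). Dnm1l and Mff differed by 0.00 and 0.01. The called differences were small. The 3 called with mOSM differed from PBS by -12.9% to -12.1% and the 6 called with hlOSM by -20.4% to -9.93%. With mLIF, 0 of 9 genes were called, where 9.91% of all tested genes were. With mOSM, 3 of 9 were called, all lower, where 31.2% of tested genes were called in either direction and 15.8% were called lower. With hlOSM, 6 of 9 were called, all lower, against 37.9% in either direction and 19.8% lower among tested genes, and 4 of 9 with the replicate block. With that block, 3 of 9 were called lower with mOSM, and the shares of tested genes called lower were 12.8% with mOSM and 16.5% with hlOSM. The 9 genes were chosen with earlier results of these data known, so the shares are no test of them as a set. The deposited values differed hardly at all by replicate number once averaged over conditions, as values do after a replicate term has been subtracted, a step that no source used here states. If it was taken, the fit without the block counts more degrees of freedom than the values hold, and its p-values are too small. The libraries of a condition would then also lie closer together, and a lack of overlap between conditions would be easier to reach. Overlaps are therefore given as a description, and the share of all tested genes without overlap was not counted. Leaving out PBS replicate 3 left 2 of 9 called with hlOSM, and leaving out mOSM replicate 1 left 1 of 9 called with mOSM. The median log2 difference of the 9 genes to PBS was -0.10 for mLIF, -0.18 for mOSM and -0.15 for hlOSM, beside 0.00037, -0.0043 and -0.0052 over all tested genes. The 3 comparisons share the same PBS libraries and are therefore not independent of each other.

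**Figure D1:**
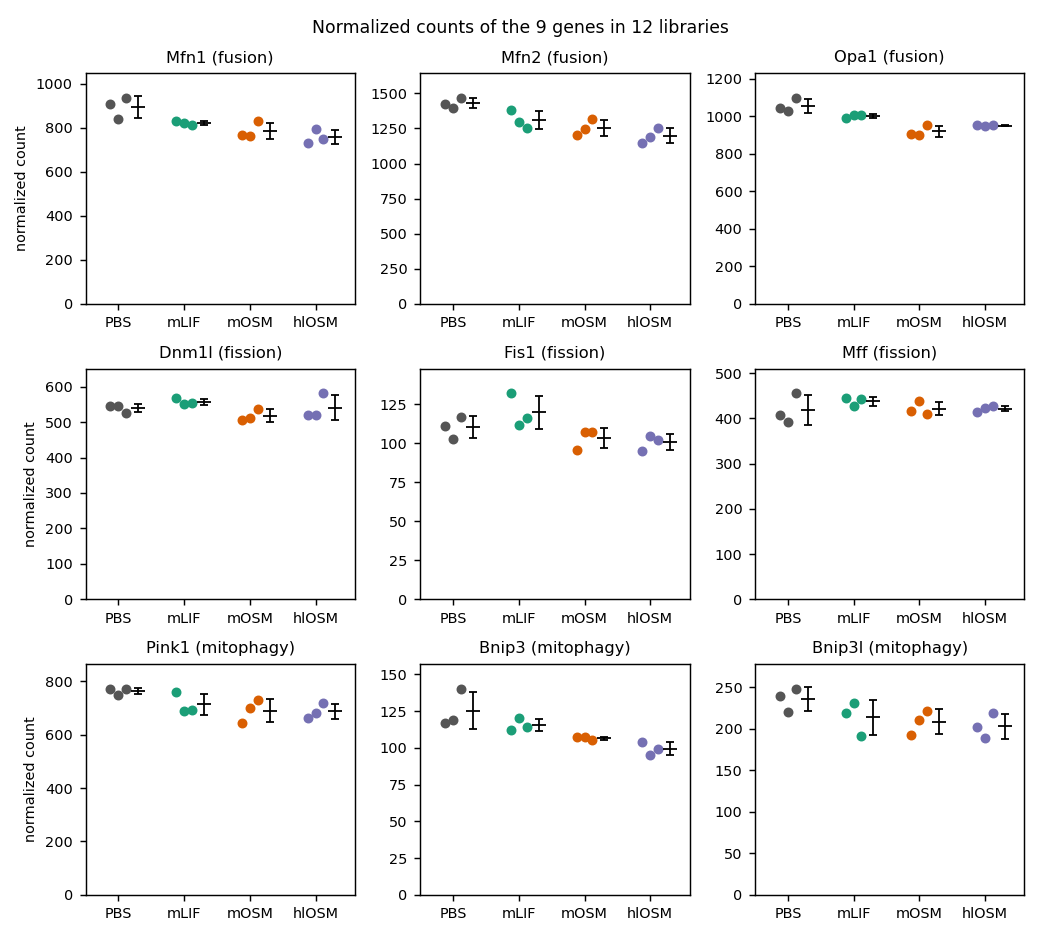
Normalized counts (y axis, from 0, with its own range for each gene) of the 9 genes in the 3 libraries of each condition (points), with the mean and SD (bars). Every mOSM and hlOSM library lay below every PBS library for Mfn1, Mfn2 and Opa1, whereas Dnm1l, Fis1 and Mff overlapped with PBS for both proteins. The share of all tested genes without such an overlap was not counted.

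Mfn1, an outer membrane mitofusin, measured 907, 838 and 935 normalized counts with PBS. The mLIF libraries gave 832, 823 and 812, the mOSM libraries 767, 760 and 829, and the hlOSM libraries 728, 794 and 750. All 9 cytokine libraries lay below the lowest PBS library. Against PBS the log2 fold change came to -0.12 for mLIF (SE 0.06, adjusted p = 0.183), -0.19 for mOSM (SE 0.06, adjusted p = 0.0135) and -0.24 for hlOSM (SE 0.06, adjusted p = 0.0018), so that the gene was called with both OSM proteins. The mOSM call was lost in 4 of the 12 fits that left out 1 library, and over all 12 the log2 fold change stayed between -0.23 and -0.15. The hlOSM call was kept in 12 of 12.

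Mfn2, the second mitofusin, which also tethers mitochondria to the endoplasmic reticulum, measured 1425, 1397 and 1468 normalized counts with PBS. After mLIF it measured 1385, 1293 and 1256, after mOSM 1202, 1247 and 1317, and after hlOSM 1147, 1192 and 1257. As for Mfn1, no cytokine library reached the PBS range. The log2 fold change to PBS came to -0.13 for mLIF (SE 0.05, adjusted p = 0.139), -0.19 for mOSM (SE 0.05, adjusted p = 0.0093) and -0.26 for hlOSM (SE 0.05, adjusted p = 0.000646). The last of these was the smallest adjusted p of the 9 genes and was kept in 12 of 12 fits without a library, and the mOSM call was lost only without mOSM replicate 1 (adjusted p = 0.0525).

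Opa1, the GTPase of inner membrane fusion, measured 1044, 1026 and 1098 normalized counts with PBS. The mLIF libraries gave 992, 1007 and 1006, the mOSM libraries 907, 898 and 954, and the hlOSM libraries 951, 950 and 951. The PBS libraries were again the highest, the mLIF libraries lay between, and the mOSM and hlOSM libraries lay below both. The log2 fold change was -0.20 with mOSM (SE 0.05, adjusted p = 0.0029), called in 12 of 12 fits without a library. With hlOSM it was -0.15 (SE 0.05, adjusted p = 0.0169), and this call was lost without PBS replicate 3 (adjusted p = 0.0907) and after quantile normalization (log2 fold change -0.08, adjusted p = 0.0735). With mLIF it was -0.08 (adjusted p = 0.335).

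The lower levels of the fusion genes went together with lower cardiomyocyte markers, but not with these alone. Of 9 cardiomyocyte markers, mLIF lowered 5, mOSM 7 and hlOSM 7, with medians of -0.23, -0.27 and -0.29 on the log2 scale, and none was called higher. With the replicate block mLIF lowered 3 of them. Of all tested genes, 4.44% were called lower with mLIF. Of 7 smooth muscle and pericyte markers, mLIF lowered 0, mOSM 5 and hlOSM 6, and 0 were raised. Their medians were -0.14, -0.63 and -0.79. Of 8 endothelial markers, each OSM protein raised 5 and lowered 0. In bulk RNA, a change in the number of a cell type and in its transcripts per cell cannot be told apart. The part of any of these markers in the fall of the fusion genes was not tested. A list of 10 genes for the mitochondria themselves (such as Vdac1, Tfam and Cs, for a channel, a DNA-binding factor and an enzyme of mitochondria) had 0, 0 and 1 members called, the last lower, with medians of -0.06, -0.07 and -0.08. The 1 call, Polg with hlOSM, was lost with the replicate block (adjusted p = 0.0769).

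Dnm1l, which encodes DRP1, measured 546, 546 and 527 normalized counts with PBS. After mLIF it measured 567, 550 and 553, after mOSM 505, 512 and 538, and after hlOSM 520, 521 and 581. The mLIF libraries lay just above the PBS range and the OSM libraries overlapped with it. The log2 differences to PBS were 0.04, -0.06 and 0.00, with 95% confidence intervals of -0.07 to 0.16, -0.18 to 0.06 and -0.12 to 0.12.

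Fis1, an outer membrane anchor of fission proteins, measured 111, 103 and 117 normalized counts with PBS. The mLIF libraries gave 132, 112 and 116, the mOSM libraries 96, 107 and 107, and the hlOSM libraries 95, 105 and 102. All mLIF libraries lay above every library with mOSM or hlOSM, while all 3 cytokines overlapped with PBS. The log2 differences to PBS were 0.12, -0.09 and -0.13, and their intervals, -0.08 to 0.31, -0.29 to 0.10 and -0.32 to 0.06, were the widest of the 9 genes.

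Mff, the main adaptor that recruits DRP1, measured 407, 392 and 455 normalized counts with PBS. After mLIF it measured 445, 427 and 442, after mOSM 417, 438 and 409, and after hlOSM 415, 422 and 427. All conditions overlapped with PBS, whose 3 libraries spread over a wider range than those of any cytokine. The log2 differences to PBS were 0.07 with mLIF and 0.01 with each OSM protein, the latter with intervals of -0.11 to 0.14.

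Pink1, the kinase that accumulates on damaged mitochondria, measured 771, 749 and 771 normalized counts with PBS. The mLIF libraries gave 759, 689 and 694, the mOSM libraries 644, 699 and 728, and the hlOSM libraries 662, 682 and 718. All OSM libraries lay below the PBS range, and 1 mLIF library lay within it. The log2 fold change was -0.15 with hlOSM (adjusted p = 0.0409), called in the main test but not with the replicate block (adjusted p = 0.0689), without the filter on low values (adjusted p = 0.0649), or in 6 of 12 fits without a library. With mOSM the log2 difference was also -0.15 and was not called (adjusted p = 0.0558), and with mLIF it was -0.10 (adjusted p = 0.293).

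Bnip3, a mitophagy receptor known as a hypoxia-inducible gene, measured 117, 119 and 140 normalized counts with PBS. After mLIF it measured 112, 120 and 114, after mOSM 107, 107 and 105, and after hlOSM 104, 95 and 99. Every hlOSM library lay below every library of the other conditions, and PBS replicate 3 was the highest of all 12. The log2 fold change with hlOSM was -0.33 (SE 0.09, adjusted p = 0.0059), the largest difference to PBS among the 9 genes. Without PBS replicate 3 it was -0.25 and was no longer called (adjusted p = 0.0506). With mOSM the log2 difference was -0.23 (adjusted p = 0.0543) and with mLIF -0.11 (adjusted p = 0.446).

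Bnip3l, which encodes the related receptor NIX, measured 239, 220 and 248 normalized counts with PBS. The mLIF libraries gave 219, 231 and 191, the mOSM libraries 193, 211 and 222, and the hlOSM libraries 202, 189 and 219. The hlOSM libraries lay just below the PBS range and the other 2 conditions overlapped with it. The log2 fold change with hlOSM was -0.21 (adjusted p = 0.0474), a call that was lost with the replicate block (adjusted p = 0.0813), with TMM scaling (adjusted p = 0.0523), without the filter (adjusted p = 0.0693) and in 6 of 12 fits without a library. With mOSM it was -0.18 (adjusted p = 0.114) and with mLIF -0.14 (adjusted p = 0.286).

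**Figure D2:**
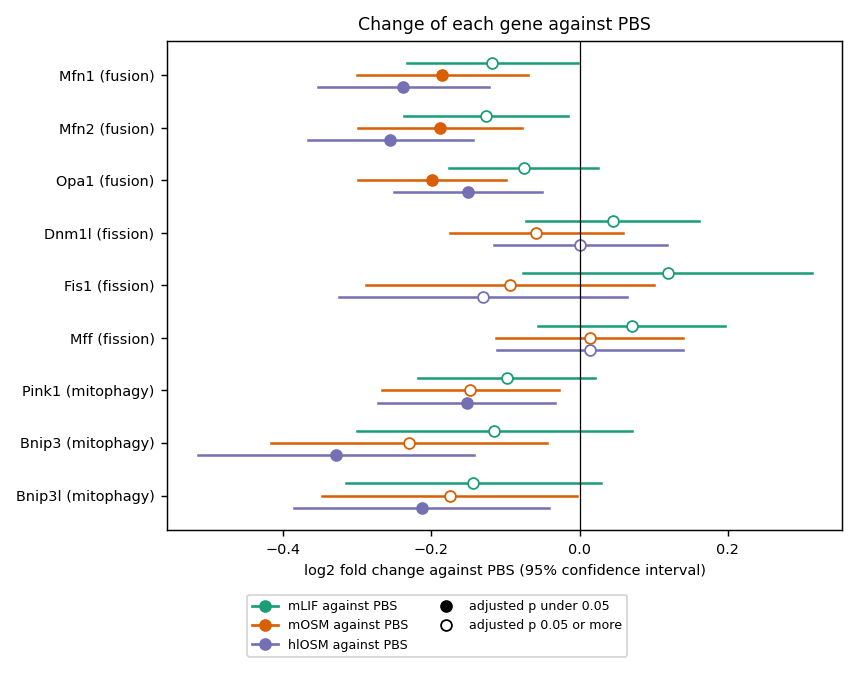
Log2 fold change against PBS (x axis) of the 9 genes (y axis) for each cytokine, with 95% confidence intervals (lines). Filled points mark an adjusted p under 0.05, which 3 genes reached with mOSM and 6 with hlOSM, all of them below 0.

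The cytokines were next compared with each other. Between hlOSM and mOSM, 0 of 9 genes were called, where 0.106% of tested genes were. The log2 differences between these proteins ran from -0.10 for Bnip3 (interval -0.28 to 0.09) to 0.06 for Dnm1l (interval -0.06 to 0.18). For Mfn1, Mfn2 and Opa1 they were -0.05, -0.07 and 0.05, with intervals of -0.17 to 0.06, -0.18 to 0.04 and -0.05 to 0.15. Between mOSM and mLIF, 0 of 9 were called, against 11.8% of tested genes. Opa1 came nearest (log2 difference -0.12, adjusted p = 0.106), and its mOSM libraries (898 to 954) lay below the mLIF libraries (992 to 1007).

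Between hlOSM and mLIF, 0 of 9 were called as well, against 16.6% of tested genes. Fis1 came nearest, with a log2 difference of -0.25 (interval -0.44 to -0.05, adjusted p = 0.0744) and no overlap between the libraries, followed by Mfn2 at -0.13 (adjusted p = 0.106) and Bnip3 at -0.21 (adjusted p = 0.112). At an unadjusted p, Fis1 reached 0.0145. The fall of the fusion genes with the OSM proteins was therefore not shown to differ from the smaller difference seen with mLIF.

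Whether hlOSM departed from the sum of the mLIF and mOSM effects was tested as an interaction. It was called for 0 of 9 genes, against 0.167% of tested genes. Opa1 had the largest departure relative to its error, at 0.12 on the log2 scale (interval -0.02 to 0.27, adjusted p = 0.504). An F test for any difference among the 4 conditions called 4 of 9 genes, against 34.2% of tested genes. These were Mfn2 (adjusted p = 0.0039), Mfn1 (adjusted p = 0.0091), Opa1 (adjusted p = 0.0108) and Bnip3 (adjusted p = 0.0282), and Bnip3 was lost with the replicate block (adjusted p = 0.0928). Without PBS replicate 3, 1 gene was called.

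To set the fusion genes against the fission genes within a library, the mean log2 value of Dnm1l, Fis1 and Mff was subtracted from that of Mfn1, Mfn2 and Opa1. This contrast was chosen after the values had been seen and is given as a description. The fusion genes were already known to be lower, so a lack of overlap with PBS is no separate support. The difference was 1.92, 1.92 and 1.91 log2 units in the PBS libraries. It was 1.70, 1.78 and 1.72 in the mLIF libraries, 1.78, 1.71 and 1.82 in the mOSM libraries and 1.75, 1.76 and 1.71 in the hlOSM libraries. All cytokine libraries lay below all PBS libraries, and the 3 cytokines overlapped with each other. The same difference for the mitophagy genes ran from -0.06 to -0.02 with PBS and from -0.30 to -0.15 over the 9 cytokine libraries.

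**Figure D3:**
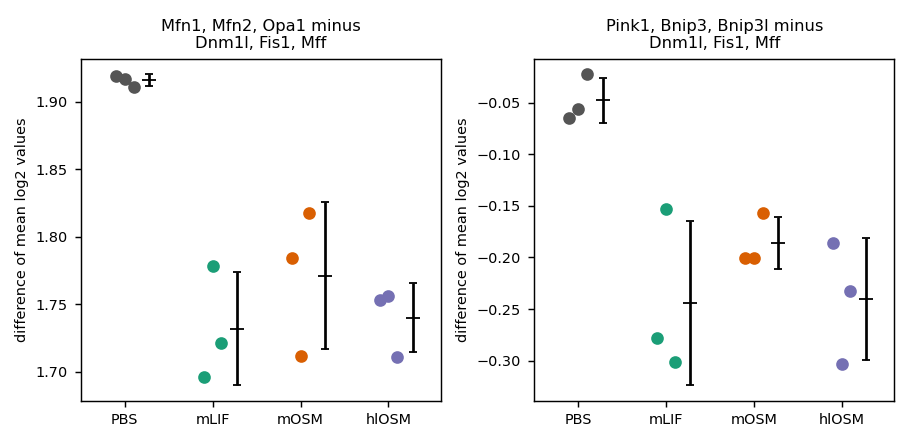
Mean log2 value of the fusion genes (left) or the mitophagy genes (right) minus that of the fission genes (y axis, which does not start at 0) in each library (points), with the mean and SD of 3 libraries (bars). On both sides the PBS libraries lay above all cytokine libraries, between which the conditions overlapped. Both contrasts were chosen after the values had been seen, so this lack of overlap with PBS is a description only.

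Divided by exonic length, the 9 genes kept 1 order of mean levels in all 4 conditions. With PBS, Pink1 had 286 ± 4.75 normalized counts per kb of exon (SD, n = 3) and Mfn2 275 ± 6.89, and their libraries overlapped. Mfn1 (146 ± 8.17) and Opa1 (134 ± 4.76) followed and also overlapped. Dnm1l, at 104 ± 2.11, stood apart from its neighbours. Fis1 (64.4 ± 4.10), Bnip3l (61.1 ± 3.70) and Bnip3 (55.3 ± 5.63) each overlapped with the next, and Mff was lowest at 42.8 ± 3.37, without overlap. With hlOSM, Mff ran from 42.5 to 43.8 per kb, within the range of Bnip3 of 41.9 to 45.9, while Pink1 and Mfn2 no longer overlapped. The length is the sum of all annotated exons of a gene, 9757 bases for Mff and 1714 for Fis1, so that exons not used in these cells lower the level.

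**Figure D4:**
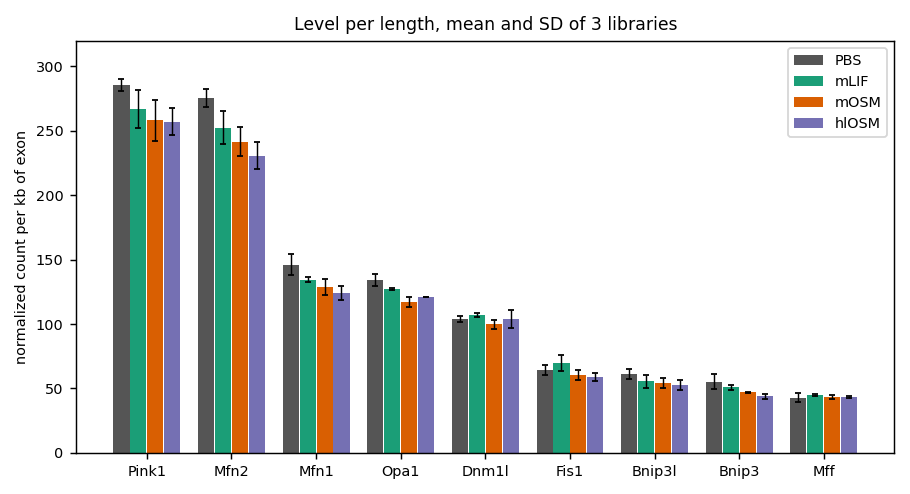
Normalized counts per kb of annotated exon (y axis, from 0) for the 9 genes in order of their PBS level, with bars for the mean and error bars for the SD of 3 libraries of each condition. By their means, Pink1 and Mfn2 were the highest and Mff the lowest in all 4 conditions, although with hlOSM the libraries of Mff and Bnip3 overlapped.

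In the mm10 annotation, Mfn1 lies on chromosome 3 from 32529465 to 32579239, Mfn2 on chromosome 4 from 147873599 to 147904704 and Opa1 on chromosome 16 from 29579334 to 29654884. Dnm1l lies on the same chromosome from 16312230 to 16358959, Fis1 on chromosome 5 from 136953275 to 136966234 and Mff on chromosome 1 from 82724890 to 82752394. Pink1 lies on chromosome 4 from 138313409 to 138326307, Bnip3 on chromosome 7 from 138890836 to 138909519 and Bnip3l on chromosome 14 from 66985239 to 67008877. Of the exonic bases of Bnip3, 22.3% face the antisense gene Gm45507 on the other strand, and whether reads were counted by strand is not given in the sources used here. The smaller overlaps were 4.67% of exonic bases for Dnm1l, 2.00% for Mff, both with a gene on the other strand, and 6.70% for Pink1 with miRNA genes on its own strand. The other 5 genes overlapped with no annotated exon.

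RefSeq promoter windows (GRCm38.p6, 250 bases before to 50 after a start) were matched for 8 of 9 genes, with 13 windows in all, and 6 short motifs were searched on both strands. The motifs stand for factors downstream of these cytokines, of hypoxia or of mitochondrial biogenesis. The STAT palindrome TTCNNNGAA was in 0 of 13 windows and in 8.3% of all 32851 windows, and the ERR motif AAGGTCA in 0 of 13 and in 4.72% of all. The NRF1 core GCATGCGC was in 1 of 13, that of Opa1, and in 2.71% of all windows. The HIF cores ACGTG and GCGTG were in 3 and 8 of the 13 windows, those of 2 and 5 genes, and in 19.6% and 32.4% of all windows. The windows of Mfn2 overlap, so that the same site of either core was counted in more than 1 of them. The E-box CACGTG, which contains ACGTG on either strand, was in 1 window, that of Bnip3, and in 7.15% of all. A match describes the letters and not binding, and a window without one says nothing of the factor.

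The promoters of Opa1 and Bnip3 are shown because both genes were called lower with hlOSM and theirs were the only windows with the NRF1 core and with more than 2 HIF cores. Capitals mark the 2 overlapping NRF1 matches in Opa1 (chr16:29579084-29579383, plus strand) and the 5 HIF core matches in Bnip3 (chr7:138909457-138909756, minus strand), 2 of them within the E-box.
Opa1: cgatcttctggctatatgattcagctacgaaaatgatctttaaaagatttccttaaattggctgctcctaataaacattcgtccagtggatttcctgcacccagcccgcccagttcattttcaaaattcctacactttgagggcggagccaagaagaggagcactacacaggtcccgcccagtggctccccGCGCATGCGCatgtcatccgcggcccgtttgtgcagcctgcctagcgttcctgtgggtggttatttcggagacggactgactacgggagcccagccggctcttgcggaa
Bnip3: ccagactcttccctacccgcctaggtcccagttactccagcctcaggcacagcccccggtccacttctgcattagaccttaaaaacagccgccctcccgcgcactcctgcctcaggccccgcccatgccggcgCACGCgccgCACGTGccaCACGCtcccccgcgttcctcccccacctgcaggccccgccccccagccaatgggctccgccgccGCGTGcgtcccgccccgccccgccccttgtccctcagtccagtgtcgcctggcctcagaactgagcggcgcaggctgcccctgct

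The rest of the machinery was followed in lists of 104 other genes of fusion, fission, transport, mitophagy and autophagy, of which 100 were tested. After mLIF, 3 of them rose and 5 fell (2 and 2 with the replicate block). After mOSM 13 rose and 13 fell (10 and 10), and after hlOSM 14 rose and 22 fell (11 and 12). The medians were -0.01, -0.03 and -0.03 on the log2 scale. Of the 100 genes, 8%, 26% and 36% were called, beside 9.91%, 31.2% and 37.9% of all tested genes. The latter shares also stand beside the counts of each list below.

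Fission adaptors and regulators moved in both directions, with 1 of 15 raised and 1 lowered by mLIF, and 4 raised and 3 lowered by either OSM protein. These were 13.3% of the 15 genes with mLIF and 46.7% with either OSM protein. Under the replicate block mOSM lowered 2, the other counts being the same. Inf2, a formin that builds actin around mitochondria before division, measured 78, 73 and 68 normalized counts with PBS. After mLIF it measured 98, 96 and 103, after mOSM 139, 130 and 155, and after hlOSM 135, 157 and 149. No condition other than the OSM pair overlapped with another. It rose over PBS by 0.44 on the log2 scale after mLIF (adjusted p = 0.0052), by 0.94 after mOSM (adjusted p = 8.0e-08) and by 1.00 after hlOSM (adjusted p = 2.4e-08). Spire1, an actin nucleator that works with INF2, went from 257, 272 and 203 with PBS to 398, 348 and 428 with mOSM and 382, 385 and 420 with hlOSM, with no overlap. It rose by 0.69 on the log2 scale with mOSM (adjusted p = 7.2e-06) and 0.70 with hlOSM (adjusted p = 3.7e-06). Akap1, an outer membrane anchor for protein kinase A, which phosphorylates DRP1, fell with hlOSM by 0.49 on the log2 scale (adjusted p = 1.0e-06). It went from 509, 476 and 540 with PBS to 346, 374 and 363 with hlOSM. Akap1 was also called lower with mLIF (log2 fold change -0.22, adjusted p = 0.0200) and with mOSM (-0.29, adjusted p = 0.00075). The mLIF call was kept in 8 of 12 fits without a library and the mOSM call in 12 of 12.

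Among regulators of outer membrane fusion, 1 of 6 tested genes was raised by each cytokine and 1 lowered by hlOSM. Marchf5, a ubiquitin ligase of the outer membrane that acts on mitofusins and DRP1, rose with mLIF by 0.21 on the log2 scale (adjusted p = 0.0306), a call lost with the replicate block (adjusted p = 0.0761). It also rose by 0.20 with mOSM (adjusted p = 0.0165) and by 0.23 with hlOSM (adjusted p = 0.0047), and both calls were kept with the block. Of 9 genes of inner membrane fusion and OPA1 processing, 0 were called with mLIF, 1 was raised with mOSM, and 1 was raised and 1 lowered with hlOSM, the lowered gene being lost with the block. None of the 8 tested MICOS genes of the cristae was called with any of the 3 cytokines. Their median log2 differences to PBS were -0.06 for mLIF, -0.09 for mOSM and -0.05 for hlOSM. Single genes ran from -0.28 to 0.38 after mOSM and from -0.32 to 0.66 after hlOSM. Immt came nearest to a call after mOSM (-0.15, adjusted p = 0.0545) and Chchd3 after hlOSM (-0.16, adjusted p = 0.0575). A lack of calls does not show that these genes were unchanged. Of 5 tested transport genes, 1 was lowered with mLIF, a call lost with the block, and 2 with each OSM protein.

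Mitophagy receptors and adaptors had 1 of 12 genes lowered by mLIF, 1 raised and 3 lowered by mOSM, and 1 raised and 4 lowered by hlOSM (2 with the replicate block). Calcoco1, an autophagy receptor, measured 361, 384 and 422 normalized counts with PBS, 295, 285 and 317 with mOSM and 296, 293 and 260 with hlOSM. The groups did not overlap with PBS, and the log2 fold changes were -0.38 (adjusted p = 0.000249) and -0.46 (adjusted p = 2.1e-05). Fundc2, a paralog of the receptor Fundc1, fell by 0.23 with mLIF (adjusted p = 0.0381), which was lost with the replicate block (adjusted p = 0.0774). Its fall by 0.27 with mOSM (adjusted p = 0.0045) was kept with the block, and that by 0.19 with hlOSM (adjusted p = 0.0383) was lost (with the block 0.0666). The PINK1-Parkin list had 0 of 13 genes called for mLIF, 1 raised and 1 lowered by mOSM, and 2 raised and 3 lowered by hlOSM, of which 1 raised gene was left with the block.

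The autophagosome core had 1 of 26 genes raised and 1 lowered by mLIF, 3 and 3 by mOSM and 4 and 5 by hlOSM. With the block these became 1 and 0, 2 and 1, and 2 and 2. Atg13 and Atg101, both subunits of the ULK1 initiation complex, moved in opposite directions with mLIF. Atg13 rose by 0.36 (adjusted p = 0.0103) and Atg101 fell by 0.42 on the log2 scale (adjusted p = 0.0238). The call of Atg101 was lost with the replicate block (adjusted p = 0.0547), as was its fall by 0.35 with mOSM (adjusted p = 0.0260, with the block 0.0521). Its fall by 0.41 with hlOSM (adjusted p = 0.0082) was kept with the block but lost without PBS replicate 3 (adjusted p = 0.0525). The rise of Atg13 with mLIF was lost without PBS replicate 3 (adjusted p = 0.0715) and without mLIF replicate 3 (adjusted p = 0.0779). Atg13 also rose by 0.34 with mOSM (adjusted p = 0.0038) and by 0.34 with hlOSM (adjusted p = 0.0033). Both of these calls were kept in 12 of 12 fits without a library.

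**Figure D5:**
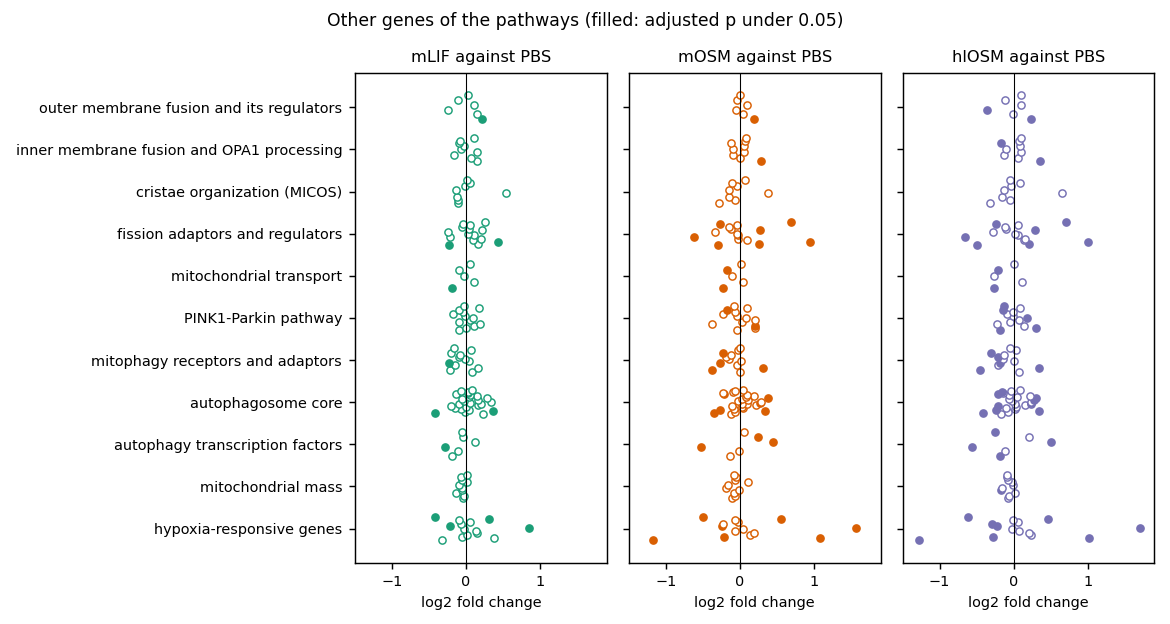
Log2 fold change against PBS (x axis) of the genes of each list (y axis, a point per gene) in the 3 comparisons, filled where the adjusted p was under 0.05. Genes of most lists lay on both sides of 0, and among fission regulators Inf2 reached 0.94 with mOSM and 1.00 with hlOSM.

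Of 6 transcription factors of autophagy genes, mLIF lowered 1, mOSM raised 2 and lowered 1, and hlOSM raised 1 and lowered 3. With the replicate block mOSM raised 1 and hlOSM lowered 2, the other counts being the same. Foxo3, which drives autophagy genes in muscle, measured 432, 459 and 543 normalized counts with PBS. The mLIF libraries gave 396, 389 and 390, the mOSM libraries 325, 358 and 313, and the hlOSM libraries 345, 297 and 325. Every cytokine library was below the PBS range. The log2 fold changes were -0.28 (adjusted p = 0.0235), -0.52 (adjusted p = 1.8e-05) and -0.56 (adjusted p = 4.7e-06). The first of these calls was lost after quantile normalization (adjusted p = 0.0512) and in 4 of 12 fits without a library. Without PBS replicate 3 the value with mLIF was -0.18 (adjusted p = 0.165).

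Hif1a, the hypoxia-inducible factor subunit, measured 1203, 1219 and 1215 normalized counts with PBS, 1570, 1632 and 1780 with mOSM and 1655, 1688 and 1816 with hlOSM. The OSM libraries were all above PBS, and the gene rose by 0.45 with mOSM (adjusted p = 1.8e-06) and 0.50 with hlOSM (adjusted p = 3.0e-07). Bnip3 was lower than with PBS in the hlOSM libraries, in which Hif1a was higher. Only the Hif1a transcript was measured, and a link between these genes was not tested. Other hypoxia-responsive genes were split, with 3 of 14 tested genes raised and 5 lowered by hlOSM. Ndrg1, a stress-responsive gene, rose by 1.71 on the log2 scale (adjusted p = 6.6e-08) and Ddit4, an inhibitor of mTORC1, by 1.01 (adjusted p = 1.4e-06). The secreted factors Adm and Vegfa fell by 1.28 (adjusted p = 3.3e-06) and 0.61 (adjusted p = 7.9e-06). With mLIF 2 of the 14 were raised and 2 lowered, and with mOSM 3 and 4. The shares of the 14 genes called were 28.6%, 50% and 57.1% with mLIF, mOSM and hlOSM. Of all tested genes, 9.91%, 31.2% and 37.9% were called. Under the replicate block mLIF lowered 1 and hlOSM 4, the other counts being the same.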

How the data were processed

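RNA of the 12 libraries was prepared with a stranded total RNA kit and sequenced as single-end reads. Per the submitters' processing notes and the study's methods, the authors checked reads with FastQC, aligned them to mm10 with STAR 2.7.7a and counted those touching exons per gene with featureCounts 1.6.5, leaving out reads of several genes or places. The deposited values are a score: counts normalized by the authors, by a method not given in the sources used here, and rounded to whole numbers, not divided by length. They hold almost no effect of the replicate number, whose removal before deposit is not stated in the sources used here. The depth behind each value is unknown, so no counting intervals are given. Symbols, identifiers and gene coordinates were taken from the same table.

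The values were analysed as log2(value + 1) with limma 3.58.1 in R 4.3.3 (moderated test with a mean-variance trend), in 1 fit of all 12 libraries, for the 13184 genes that reached 10 in 3 or more libraries. The p-values were adjusted by Benjamini-Hochberg over these genes. The fit was tested on simulated data. Exons were taken from GENCODE release M21, of the same build as mm10 (GRCm38), in which all 9 genes have the start and end of the table. Promoters are RefSeq sequences. Figures were drawn with matplotlib 3.10.9.

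The 9 genes and all lists were chosen with earlier results of these data known. All 9 genes were named. From the wider lists, the 3 largest rises and 3 largest falls past the threshold in each comparison with PBS were named (mean of at least 50), and from the hypoxia and mitochondrial lists the 2 largest of each direction with hlOSM. For the 3 genes with the smallest F test p, the 3 genes with the most similar pattern were named. Polg was named after its value was seen.

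Alternatives were other pseudocounts, filters, scaling by the trimmed mean of M-values (TMM, written out in R), quantile normalization, robust estimation, fitting the 6 libraries of a comparison alone, a block for the replicate number, a minimum fold, a stricter threshold and each library left out.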

Additional observations from a re-analysis of the deposited data

How the results depend on the processing

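Of 181 counts of changed genes among the 9, recomputed under the alternatives, 170 stayed within 1.5 times the value given above or stayed at 0. The value was 0 for mLIF against PBS, for the comparisons between cytokines and for the interaction. Many of the 170 are therefore counts of 0 that stayed 0, and the other counts were less stable. The 3 genes called with mOSM became 5 after quantile normalization and 0 at a minimum of 1.5-fold, and 1 to 4 when a library was left out (1 without mOSM replicate 1). The 6 called with hlOSM became 0 at a minimum of 1.5-fold, 3 at an adjusted p under 0.01, and 2 to 6 when a library was left out (2 without PBS replicate 3). For mOSM against mLIF the count of 0 became 1 after quantile normalization and 0 to 1 without a library (1, Opa1, without mOSM replicate 3), and for hlOSM against mLIF it became 1 after quantile normalization (Mfn2). The 4 genes of the F test became 2 at an adjusted p under 0.01 and 1 to 5 without a library (1 without PBS replicate 3). In the following comparisons limma called 0 of the 9 genes but did call other tested genes. At an unadjusted p under 0.05, 3383 of all tested genes passed for mLIF against PBS and 3213 for mOSM against mLIF. For hlOSM against mLIF there were 3774, for hlOSM against mOSM 987 and for the interaction 1521. At an adjusted p under 0.05 the numbers were 1307, 1557, 2194, 14 and 22 in the same order. Why the counts of the 9 genes changed with the alternatives was not tested.

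In the wider lists, the 8 genes called with mLIF became 4 with the replicate block, 15 with only the 6 libraries compared, 0 at 1.5-fold, 1 at an adjusted p under 0.01, and 1 to 16 without a library (2 without PBS replicate 3, 3, 4 and 1 without mLIF replicates 1, 2 and 3, and 16 without mOSM replicate 3). The 26 with mOSM became 3 at 1.5-fold, 16 at an adjusted p under 0.01 and 17 to 29 without a library (17 without PBS replicate 3). The 36 with hlOSM became 23 with the block, 3 at 1.5-fold, 19 at an adjusted p under 0.01 and 24 to 39 without a library.

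The direction turned only for differences that were not called, namely the log2 difference between hlOSM and mOSM for Pink1 after quantile normalization (0.0047) and several with a library left out. Those ran from -0.031 to 0.076 for Mff (mOSM against PBS), from -0.052 to 0.028 for Dnm1l and -0.031 to 0.077 for Mff (hlOSM against PBS), from -0.088 to 0.00010 for Pink1 and -0.11 to 0.026 for Bnip3l (mOSM against mLIF), and for hlOSM against mOSM from -0.088 to 0.0040 for Fis1, -0.021 to 0.029 for Mff, -0.054 to 0.034 for Pink1 and -0.092 to 0.014 for Bnip3l.

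Replicate numbers are shared by all 4 conditions in the labels. Deviations from the condition means of same-numbered libraries correlated between -0.518 and 0.0221 over 18 pairs, and those of other pairs between -0.119 and 0.481. Of the 18, 17 were below 0. The difference of replicate 3 and replicate 1, averaged over conditions, had an SD of only 0.0019 log2 units over 6626 genes, so that the values hold almost no effect of the replicate number. No label says what a number stands for, and the step that left the values in this state is not given in the sources used here. With the replicate block, the count of the 9 genes stayed 3 with mOSM and became 4 with hlOSM, Pink1 and Bnip3l being lost.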

Other observations

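The genes whose levels over the 12 libraries ran most like those of the 3 genes with the smallest F test p were sought among 6625 genes with a mean of at least 100, as a description. The libraries share conditions and normalization, so that high correlations are common. Mfn2 ran most like Cdh2, which encodes N-cadherin (Pearson r = 0.975), Dmpk, a kinase of muscle (0.971), and Pygm, the muscle glycogen phosphorylase (0.969). Mfn1 ran most like Plaat3 (0.980), Gfm1, a mitochondrial translation elongation factor (0.970), and Map3k4 (0.970). Opa1 ran most like Rnf146 (0.962), Cbwd1 (0.956) and Rilpl1 (0.955).

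The pseudogene Bnip3l-ps, a copy of Bnip3l, had values of 0 to 6 in the 12 libraries.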
